A study of Mus musculus with 3 samples.

Results

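Expression on the array whose scanner file is labelled A2 (the A2 array) was set directly against expression on the array whose scanner file is labelled RA plus D3V (the RA plus D3V array), the pair of treated samples among the 3 samples of the series. Both came from HoxA9-Meis1 AML cells, a mouse acute myeloid leukaemia line of the C57Bl/6 strain taken from whole bone marrow and named for the homeobox factors Hoxa9 and Meis1. Cells of the first label received 3.4 µM Pyrydopyrazine A2, cells of the second received retinoic acid (RA) and a vitamin D3 derivative (D3V) at 10 µM each, and untreated cells received neither. Every culture was kept in SFEM medium and taken at 24 h. Whether the line is 1 clone is not given in the sources used here. Each condition is 1 single-colour array, so the values below carry no replicate error and no test across samples was possible. Of 34770 genes and transcripts on the array design, 17634 gave a signal well above background, as set by the scanner software, on both treated arrays, and these are called measured here.

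The treated labels are exchanged between the deposited sources. By rank over 62976 spots, the table column named for RA plus D3V equalled the A2 scanner file (Spearman's rho 1.0), and the table column named for A2 equalled the RA plus D3V scanner file (1.0). Each treated column stood at 0.927 against the scanner file with its own label. The scanner labels are used throughout, and under the value table's labels every direction below turns round. Which source is right was not tested. The retinoid and vitamin D targets Tgm2, Cyp26a1 and Cyp24a1, described below, had their highest level on the A2 array.

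Retinoic acid acts through the nuclear receptors RAR and RXR, and active vitamin D through the receptor VDR, which also pairs with RXR. Both pathways switch on the enzymes that break down their own ligand, Cyp26 enzymes for retinoic acid and Cyp24a1 for vitamin D. In myeloid leukaemia cells both ligands are known for driving differentiation towards granulocytes or monocytes.

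A level below is the log2 of a signal divided by the array's 75th percentile, so 0 is that percentile. A difference is the level on the A2 array minus the level on the RA plus D3V array. The 75th percentile was an intensity of 274 on the A2 array and 291 on the RA plus D3V array, with 46.6% and 46.8% of 59305 spots well above background and 0 saturated. Spread within arrays does not stand in for replicate samples. For probes spotted 10 times, the SD of a difference between single spots had a median of 0.0916 (224 probes). Different probes of 1 gene had differences with a median SD of 0.15 and a root mean square SD of 0.31 (4645 genes). The 8 spike-in RNAs detected on both arrays, added at known amounts during labelling, lay 0.18 to 0.35 lower on the A2 array. Their differences had a median of -0.25 and an SD of 0.05. Scaling to the spike-ins was not tried. The position of 0, and the side on which list medians of this size fall, therefore rest on the scaling used.

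Sequence upstream of Cyp26a1 and Rarb is shown because both genes are textbook retinoic acid targets with such an element, while only Cyp26a1 was detected. The capitals mark a DR5 element, which is a pair of half-sites in direct repeat with a spacer of 5 bases, of the kind that RAR and RXR bind. The half-sites searched on both strands were AGGTCA or GGGTCA, and likewise AGTTCA or GGTTCA, from 250 bases before to 50 bases after each gene's start in RefSeq for build GRCm38.p6. The Cyp26a1 stretch is chr19:37697558-37697857 on the plus strand, with the match on the opposite strand, and the Rarb stretch is chr14:16575427-16575726 on the minus strand.
Cyp26a1: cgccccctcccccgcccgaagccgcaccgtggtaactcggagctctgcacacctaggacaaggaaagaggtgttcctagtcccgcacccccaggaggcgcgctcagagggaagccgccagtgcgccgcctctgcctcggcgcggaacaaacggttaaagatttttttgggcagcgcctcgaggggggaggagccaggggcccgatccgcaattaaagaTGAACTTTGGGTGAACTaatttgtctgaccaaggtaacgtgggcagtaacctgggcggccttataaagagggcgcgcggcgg
Rarb: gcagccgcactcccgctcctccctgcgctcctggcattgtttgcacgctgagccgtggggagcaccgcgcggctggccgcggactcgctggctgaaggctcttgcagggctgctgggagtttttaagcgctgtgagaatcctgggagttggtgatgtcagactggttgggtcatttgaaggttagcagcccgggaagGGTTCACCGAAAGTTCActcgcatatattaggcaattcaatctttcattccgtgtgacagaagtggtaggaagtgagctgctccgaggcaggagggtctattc

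Cyp26a1, which breaks down retinoic acid, had a level of 2.11 on the A2 array, -5.91 on the RA plus D3V array and -6.04 on the untreated array. It was well above background only on the A2 array, where it was at least 68.5-fold higher. Rarb, a retinoic acid receptor, stayed near background on all 3 arrays by any of its 3 probes. A DR5 element lay upstream of 31 of 27025 genes with a RefSeq promoter (0.115%). Among measured genes it lay upstream of 4, which is 0.0397% of those with a promoter, and all 4 had a difference above 0. Ppbp, a platelet chemokine, differed by 1.77, the serine protease Prss27 by 1.53, Tnfsf13b, a survival factor for B cells, by 1.21 and Blvrb, a reductase of haem breakdown, by 0.95. The last 3 were named after their values were seen. A DR3 element, the form with a spacer of 3 that VDR and RXR bind, lay upstream of 3 measured genes, with differences of 0.03 to 1.01. Of 475 genes with a promoter at least 2-fold higher on the A2 array, 3 had a DR5 element and 1 a DR3 element. Tgm2, Nrip1 and Cd38, described below, were not among the measured genes with a DR5 element. Vdr, Hbegf and Spp1 were not among those with a DR3 element. A match describes letters in this window only.

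Genes at least 2-fold apart numbered 667 with the higher level on the A2 array (3.78% of those measured) and 715 with the higher level on the RA plus D3V array (4.05%). A further 16252, or 92.2%, lay within 2-fold. The counts given for gene lists below are to be read beside these shares. The shares varied by kind of transcript and by brightness. In the same order they were 4.73% and 3.85% of 12011 protein-coding genes in RefSeq. For 2072 regions of long intergenic noncoding RNA they were 1.16% and 4.49%. In the dimmest of 5 brightness groups they were 2.55% and 6.61%, and in the brightest 2.55% and 1.70%. At 4-fold the order turned, with 200 higher on the A2 array and 99 higher on the other. The median difference was -0.02, and the quartiles were -0.27 and 0.23. The 2-fold limit runs through a dense region, since 226 genes lay between 1.9-fold and 2-fold and 177 between 2-fold and 2.1-fold. Among genes at least 2-fold apart, 290 had 2 or more measured probes. All probes pointed one way in 268 of these and passed 2-fold in 181. With normexp in place of the scanner's background correction the counts were 491 and 336, which moved the share higher on the A2 array from 48.3% to 59.4%.

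**Figure D1:**
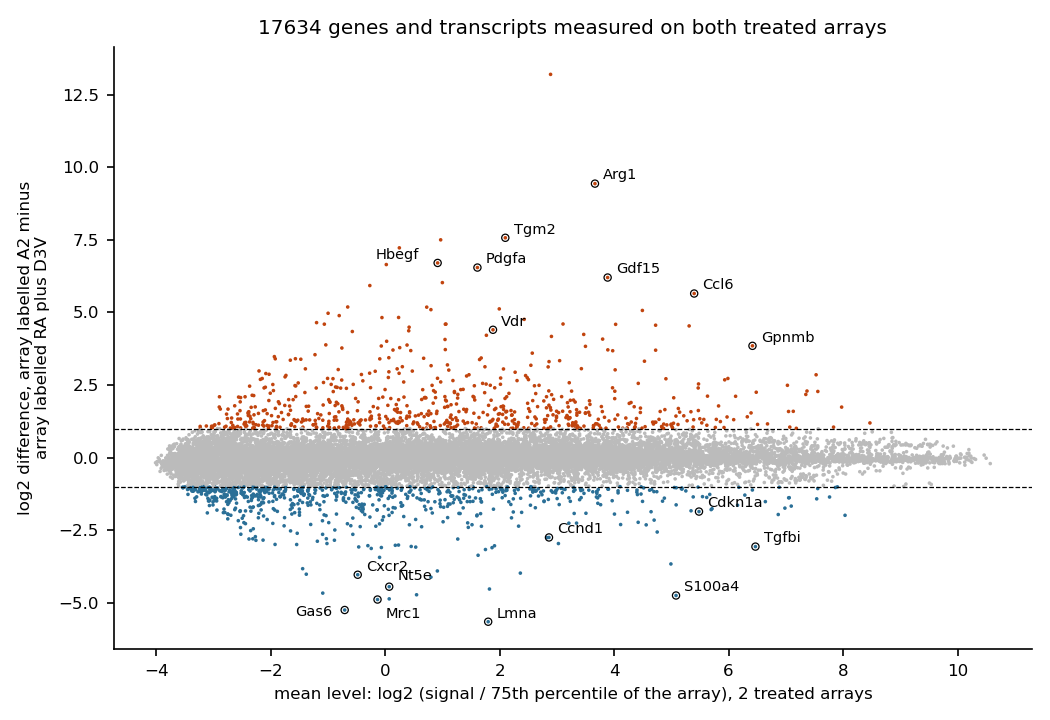
Difference between the treated arrays (y axis, log2) against the mean level on both (x axis, log2 of signal over the array's 75th percentile) for 17634 measured genes and transcripts. Red points are at least 2-fold higher on the A2 array and blue points at least 2-fold higher on the RA plus D3V array. The upper tail reaches further than the lower one, to 13.20 for an unnamed transcript and -5.66 for Lmna.

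For most genes higher on the A2 array, the untreated level lay nearer to that of the RA plus D3V array. This was so for 506 of the 627 such genes with an untreated signal well above background. Genes higher on the RA plus D3V array were divided more evenly, with the untreated level nearer to the A2 array in 379 of 657 and nearer to the RA plus D3V array in 278. The untreated array is also a single array, so these are positions of 3 values per gene.

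The retinoid list, enzymes, receptors and known targets, had 15 of 29 members measured, with a median difference of 0.23. In it 5 members were at least 2-fold higher on the A2 array and 1 on the other, while 3 more were well above background only on the A2 array and 2 only on the other, among them Rbp4, with bounds past 2-fold. The median was -0.03 without the filter on dim signals and 0.60 with a stricter one. Tgm2, the tissue transglutaminase and a classic retinoic acid target, had levels of 5.89 on the A2 array, -1.69 on the RA plus D3V array and -0.95 on the untreated array, a difference of 7.57. Its second probe gave 7.93. The probe lies at chr2:157942431-157942490 in build mm9. The A2 array stood alone, with the others close together. Nrip1, a nuclear receptor corepressor, had levels of 2.70, -3.23 and -2.58 in the same order of arrays. Cd38, an ectoenzyme long used as a marker of retinoid response in myeloid cells, had 3.35, -1.25 and -1.68. Their differences were 5.93 and 4.6.

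Cyp26b1, the sister enzyme of Cyp26a1, was at least 86.1-fold higher on the A2 array, with a level of 2.80 there and -3.63 on the RA plus D3V array. Hic1, a transcriptional repressor, was at least 78.3-fold higher, with 2.31 on the A2 array, -5.72 on the other treated array and -2.95 untreated. Aldh1a2, which makes retinoic acid, had levels of 1.96 on the A2 array, -1.02 on the RA plus D3V array and 1.68 untreated. Here the RA plus D3V array was the one apart, and the difference was 2.98. Of the 15 measured members 6 lay below 0. Rarg, another retinoic acid receptor, was the 1 at least 2-fold higher on the RA plus D3V array, with levels of 0.52, 1.84 and 1.59 and a difference of -1.32.

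The vitamin D list had 12 of 16 members measured and a median difference of 0.72, with 3 members at least 2-fold higher on the A2 array and 0 on the other. Cyp24a1, which inactivates vitamin D, had a level of 6.07 on the A2 array and was not well above background on the other arrays, at -5.85 and -6.34. It was at least 1063-fold higher on the A2 array, the largest bound among genes in the RefSeq table. Its probe lies at chr2:170308865-170308924 in mm9. Vdr, the vitamin D receptor, had levels of 4.09 on the A2 array, -0.32 on the RA plus D3V array and 0.33 untreated. Hbegf, an EGF family growth factor counted here among vitamin D responders, had 4.27, -2.44 and -1.5. Spp1, the secreted phosphoprotein osteopontin, had 3.31, 0.18 and -1.37. Differences were 4.40 for Vdr, 6.71 for Hbegf and 3.13 for Spp1. Cd14, a lipopolysaccharide coreceptor of monocytes, differed by 0.01 between the treated arrays.

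The largest difference among named genes measured on both treated arrays was that of Arg1, the arginase that turns arginine into ornithine and urea. Its levels were 8.39 on the A2 array, -1.05 on the RA plus D3V array and -5.43, not well above background, on the untreated array. That is a difference of 9.44, or 694-fold, on 1 probe at chr10:24636194-24636253 in mm9. Other genes of arginine metabolism went the other way: Ass1, which makes argininosuccinate, differed by -2.96 and Arg2, the mitochondrial arginase, by -1.60. Pycr1, of proline synthesis, differed by -1.33. The remaining 12 of the 16 measured members lay within 2-fold.

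The EGF and PDGF family list had 8 of 16 members measured, 4 above and 4 below 0, with 3 at least 2-fold higher on the A2 array and 1 on the other. Its median of 0.32 became -0.17 without the filter on dim signals. Nrg1, a neuregulin, differed by -1.52. Pdgfa, a platelet-derived growth factor chain, had levels of 4.89 on the A2 array, -1.66 on the RA plus D3V array and -1.04 untreated. Both its probes, which overlap in position, gave 6.54 to 6.55. Gdf15, a stress-induced member of the TGF-beta family, had 6.99, 0.79 and -1.66, so both treated arrays lay above the untreated one and the A2 array furthest. The difference for Gdf15 was 6.20. Of the TGF-beta list 12 of 23 members were measured, 4 of them at least 2-fold higher on the A2 array and 0 on the other, with a median of 0.05, which became 2.26 with the stricter filter on dim signals. The receptor Tgfbr2 differed by 4.08 (3.04 by its second probe), the latent TGF-beta binding protein Ltbp3 by 4.07 and the signal transducer Smad3 by 2.26. The ligand Tgfb3 was at least 155-fold higher on the A2 array, with a level of 3.29 there and a signal not well above background on both other arrays. Lrrc32, which holds latent TGF-beta at the cell surface, had levels of 3.35, -1.75 and -2.25.

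The remaining members of the 25 largest differences on this side ranged from 4.56 to 7.5. Mdfi, an inhibitor of myogenic transcription factors, stood at 7.5 and Camkk1, a calmodulin-dependent kinase kinase, at 6.03. Cp, the ferroxidase ceruloplasmin, differed by 5.19, Hid1 by 5.18, the Golgi kinase Fam20c by 5.12, and Dusp14, a dual-specificity phosphatase, by 4.97. Morn4 differed by 4.89, Prkar1b, a regulatory subunit of protein kinase A, by 4.82, Tmem273 by 4.76, the kallikrein Klk9 by 4.65 and Ncmap by 4.6. Ckb, the brain-type creatine kinase, had levels of 5.41 on the A2 array, 0.81 on the RA plus D3V array and -1.61 untreated. Adgre5, the adhesion receptor CD97, had 7.01, 2.45 and 4.39, with the untreated level between the others. Further genes seen well above background on this array alone of the treated pair were Cdr2l, at least 82.6-fold higher, Csn3, at least 46.4-fold, and Fam20a, a pseudokinase partner of Fam20c, at least 28.9-fold. The Csn3 bound rests on 1 of its 3 probes. The others were not well above background on either treated array, with differences of -0.19 and -0.28. The second probe of Cp was likewise not well above background, at -5.44 on the A2 array and -5.89 on the RA plus D3V array.

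**Figure D2:**
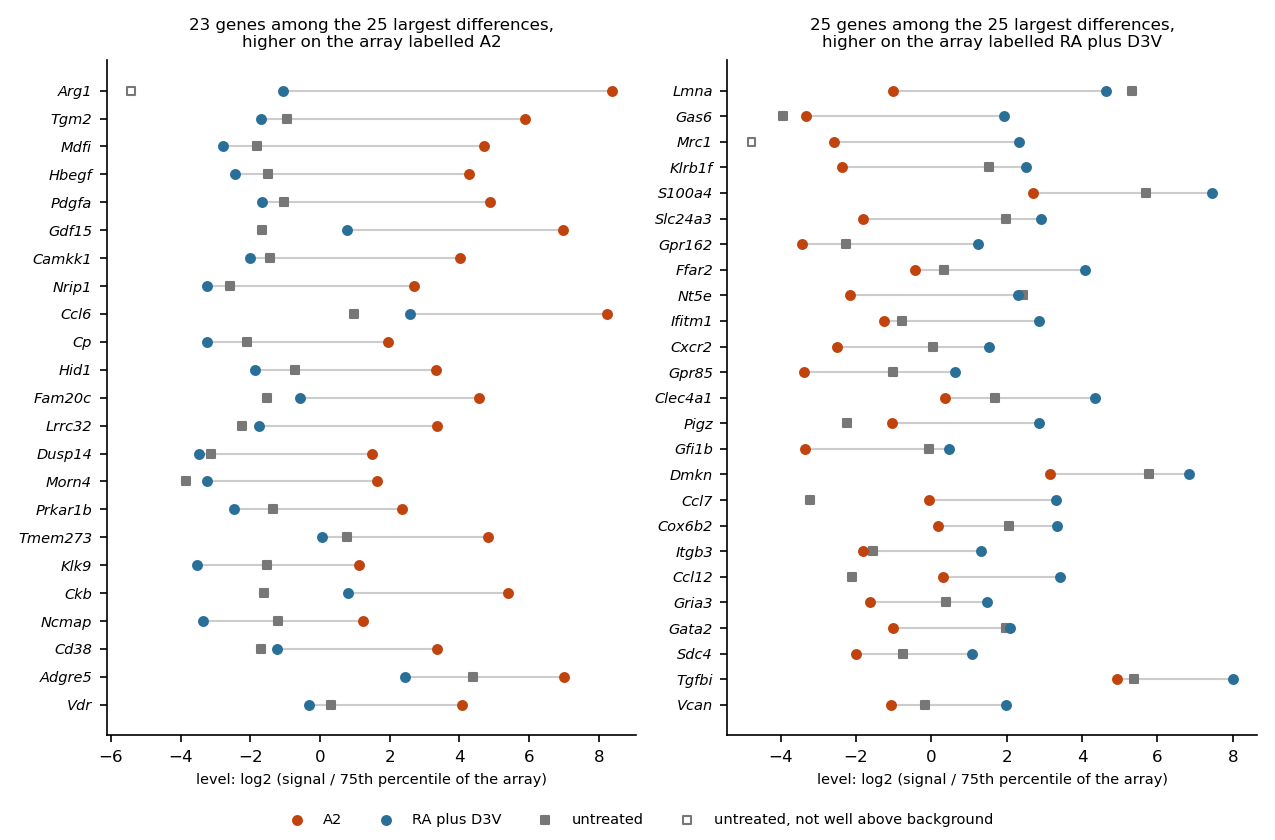
Levels on the 3 arrays (x axis, log2 of signal over the array's 75th percentile) of genes among the 25 largest differences each way, red for the A2 array, blue for the RA plus D3V array and grey squares for untreated cells, open where not well above background. In the left panel the untreated squares mostly sit by the blue points, while in the right panel they are spread between both.

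Among genes higher on the RA plus D3V array, Lmna came first. It encodes lamins A and C of the nuclear lamina. Its levels were -1.03 on the A2 array, 4.63 on the RA plus D3V array and 5.33 untreated, a difference of -5.66 on 1 probe at chr3:88287262-88287321 in mm9, and the A2 array was the one apart. Of 14 nuclear envelope genes measured, Syne3, a nesprin that anchors the nucleus, was the only other one at least 2-fold apart, at -3.04. The other 12 had differences from -0.53 to 0.23, and their list's median was -0.10. Nt5e, the ectonucleotidase CD73 that makes adenosine, had levels of -2.15, 2.30 and 2.44, with the A2 array again apart. Of the 13 measured ectonucleotidases and adenosine receptors, Nt5e included, 4 were at least 2-fold higher on the A2 array and 2 on the other. Adora2a, an adenosine receptor, differed by 2.1 and Adora3 by -1.09. A further 1 member was well above background only on the A2 array and 2 only on the other, with bounds past 2-fold.

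S100a4, a calcium-binding protein tied to cell motility, had levels of 2.71 on the A2 array, 7.46 on the RA plus D3V array and 5.71 untreated, and its second probe gave -4.89 against -4.75. The S100 and Ms4a list as a whole had 9 of its 17 measured members at least 2-fold higher on the RA plus D3V array, 1 on the A2 array and a median of -1.07. The median was -0.52 with normexp, and likewise without the filter on dim signals. Ms4a4b differed by -2.50, Ms4a4a by -2.31 and S100a6 by -1.99. Ms4a7, a macrophage member, was the 1 in the other direction at 1.12. S100a8 and S100a9, the abundant neutrophil pair, differed by -0.49 and -0.37, within 2-fold, and were named after their values were seen.

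Genes for taking up dying cells mostly leaned to the same side. Gas6, the bridge between phosphatidylserine and the TAM receptors, had levels of -3.33 on the A2 array, 1.92 on the RA plus D3V array and -3.94 untreated. The receptor Tyro3 had -2.11, 0.14 and -1.30, and the integrin subunit Itgb3 had -1.81, 1.32 and -1.54. In all 3 genes the RA plus D3V array was the highest. Their differences were -5.25, -2.24 and -3.13. That of Gas6, which was dim on the A2 array, shrank to -3.74 at its smallest over 9 processing alternatives. Of the 11 measured members of this list, these 3 were at least 2-fold higher on the RA plus D3V array and 8 lay within 2-fold. In all, 9 of the 11 had a difference below 0, and the median was -0.76. A further member was well above background only on the A2 array, with a bound past 2-fold.

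Monocyte and macrophage genes did not move as a block. Of 25 measured, 4 were at least 2-fold higher on the A2 array and 7 on the RA plus D3V array, with a median of -0.02. Csf1r, the receptor of the macrophage growth factor CSF1, had levels of 6.81 and 6.71, and Itgam, the integrin CD11b, had 4.45 and 4.39 against 2.08 untreated. Between the treated arrays these differed by 0.11 and 0.06. Higher on the A2 array were Gpnmb, a lysosomal glycoprotein of macrophages, at 3.85, the Fc receptor Fcgr4 at 3.12 and Clec7a, the beta-glucan receptor dectin-1, at 2.73. Higher on the RA plus D3V array was Mrc1, the mannose receptor, with levels of -2.58 on the A2 array, 2.31 on the RA plus D3V array and a signal not well above background untreated. Ms4a6c differed by -1.93, the scavenger receptor Marco by -1.87 and Clec4n, the lectin dectin-2, by -1.74. Csf1r and Itgam were named whatever their value, while the other genes here were named for passing 2-fold. Of the 25 measured members, 14 lay within 2-fold.

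**Figure D3:**
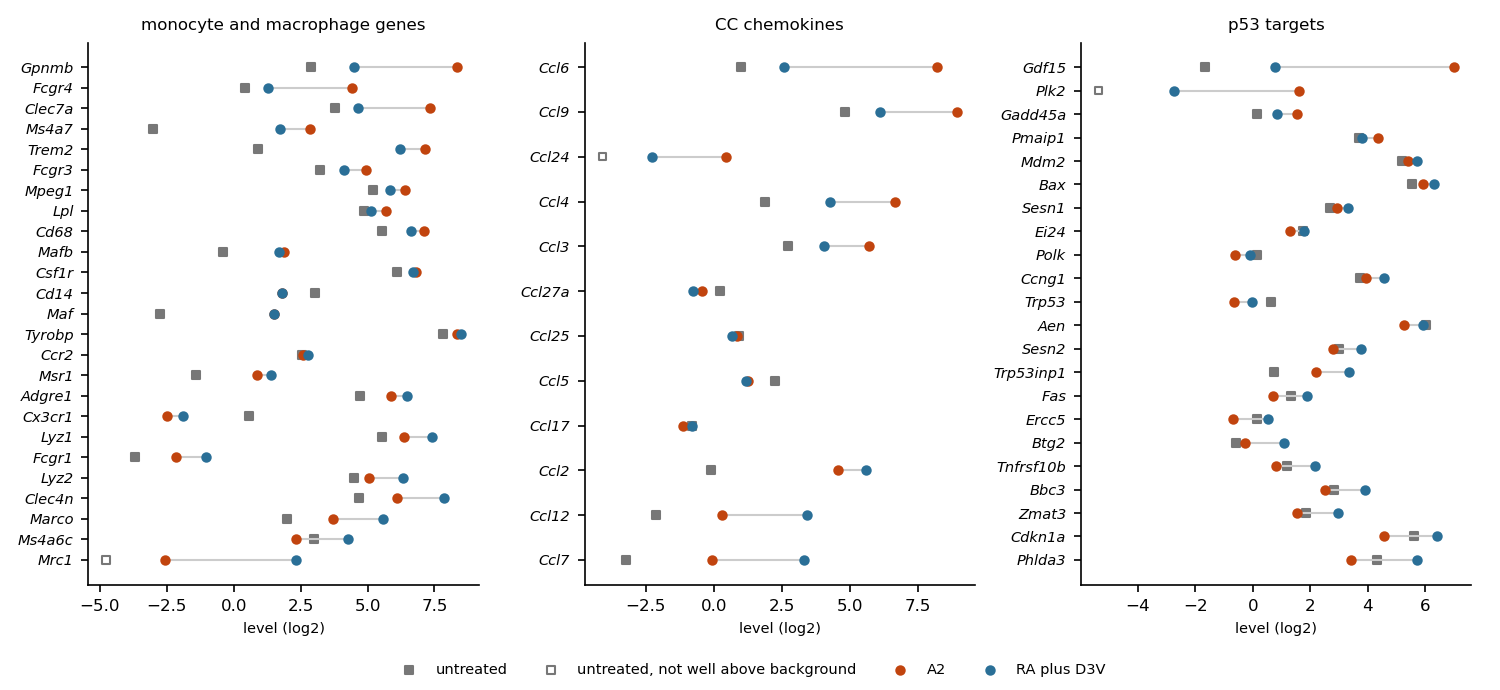
Levels (x axis, log2 of signal over the array's 75th percentile) of the measured members of 3 lists on the A2 array (red), the RA plus D3V array (blue) and the untreated array (grey squares, open where not well above background). Among CC chemokines Ccl6 lies furthest to the red side and Ccl7 and Ccl12 to the blue side, and most p53 targets have the blue point on the right.

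CC chemokines, which attract leukocytes, were divided between the arrays. Of 12 measured, 5 were at least 2-fold higher on the A2 array and 3 on the RA plus D3V array. Ccl6 had levels of 8.23 on the A2 array, 2.57 on the RA plus D3V array and 0.98 untreated, a difference of 5.65. Ccl9 differed by 2.85, Ccl24 by 2.72 and Ccl4 by 2.40. On the other side were the monocyte-attracting group of Ccl7 with levels of -0.06, 3.31 and -3.22, Ccl12 with 0.32, 3.42 and -2.11, and Ccl2 with 4.57, 5.61 and -0.11. All 3 were higher on both treated arrays than on the untreated one, and highest on the RA plus D3V array. Differences were -3.37, -3.10 and -1.04. These genes lie close together in sequence, and cross-hybridization among them was not tested.

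Of 8 CXC and platelet chemokines measured, 2 were at least 2-fold higher on each array. Cxcl3 differed by 2.67 and Ppbp by 1.77, while Pf4 differed by -1.17 and Cxcl10, an interferon-induced chemokine, by -1.12. Ppbp had levels of 2.94 and 1.17 on the treated arrays and was not well above background on the untreated one. The summed level of 10 megakaryocyte and platelet genes, which include Ppbp and Pf4, was 4.27 and 4.66 on the treated arrays and 0.32 untreated, and its part in these values was not tested. Chemoattractant receptors leaned to the RA plus D3V array, with 6 of 15 at least 2-fold higher there, 2 on the A2 array and a median of -0.44. Cxcr2, the receptor of neutrophil-attracting chemokines, had levels of -2.50, 1.54 and 0.04. Ccrl2, an atypical receptor, was the large exception at 3.88. Complement genes had 2 members at least 2-fold higher on the A2 array and 4 on the other among 13. Cfb, factor B, differed by 2.83, and C1qa and C1qc, of the starter complex C1q, by -2.21 and -1.78.

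Neutrophil and granule genes were divided. Of 24 neutrophil maturation genes, 5 lay at least 2-fold higher on the A2 array and 3 on the other, with a median of -0.21. Cxcr2 had the largest difference of this list at -4.04. Mmp9, a gelatinase of late granules, differed by 1.56 and Itgb2, the shared beta chain of leukocyte integrins, by 1.13, while Il1b, the cytokine interleukin 1 beta, differed by -1.65. Of 11 primary granule genes, 3 lay at least 2-fold higher on the RA plus D3V array, Cst7 at -2.16, Ms4a3 at -1.29 and Serpinb1a at -1.03. Mpo, myeloperoxidase, had levels of 7.17, 7.82 and 9.39, so the treated arrays lay nearer to each other than to the untreated one. The matrix metalloproteinases Mmp12, a macrophage elastase, and Mmp27 differed by 2.83 and 2.31 and were not well above background on the untreated array. Both were dim on the RA plus D3V array, at -3.15 and -3.11. Their differences shrank to 1.56 and 1.23 at the smallest over 8 processing alternatives.

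The p53 target list leaned to the RA plus D3V array, with 9 of 22 measured members at least 2-fold higher there, 18 of 22 below 0 and a median of -0.65. Phlda3, an inhibitor of Akt, had levels of 3.40 on the A2 array, 5.72 on the RA plus D3V array and 4.33 untreated. Cdkn1a, the cell cycle inhibitor p21, had 4.55, 6.41 and 5.6, and its 3 probes gave differences of -3.41 to -1.86. At the probes with differences of -1.86 and -3.41 the untreated level lay between the treated ones. At the remaining probe it was the lowest, at -2.86 against -2.62 on the A2 array and -0.51 on the RA plus D3V array. Zmat3 differed by -1.42 and the death gene Bbc3 by -1.39. Gdf15 at 6.20 and Plk2, a polo-like kinase, at 4.34 were the 2 members at least 2-fold apart the other way.

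D cyclins and cell cycle inhibitors were split by member. Ccnd1, cyclin D1, had levels of 1.49 on the A2 array, 4.24 on the RA plus D3V array and 4.68 untreated. Ccnd2 had 6.07, 4.01 and 3.37, and Ccnd3 had 6.37, 7.75 and 6.34. The 3 D cyclins thus differed by -2.75, 2.06 and -1.38. Of 18 list members measured, 3 were at least 2-fold higher on the A2 array, among them the inhibitors Cdkn2c at 1.23 and Cdkn2d at 1.07, and 6 on the other, among them Cdkn2b at -1.60. Mitosis genes lay slightly and evenly to the side of the A2 array, with 27 of 28 above 0, a median of 0.45 and 2 past 2-fold, Cenpa at 1.58 and Ccnb2 at 1.36. DNA replication genes did not share this, with 17 of 31 above 0, 0 past 2-fold and a median of 0.02. Over all measured genes the median was -0.02.

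Genes of the HoxA9 and Meis1 programme were mostly lower on the A2 array. Of 17 measured, 12 were below 0, 4 were at least 2-fold higher on the RA plus D3V array and 0 on the other, with a median of -0.49. Cd34, a marker of immature blood cells, had levels of 5.89 on the A2 array, 7.85 on the RA plus D3V array and 7.18 untreated. Cdk6, a G1 kinase, differed by -1.34, Myb, a progenitor transcription factor, by -1.19 and Bcl2, a survival gene, by -1.01. Hoxa9 had levels of 5.53, 4.72 and 4.34, and its probes gave 0.81 and 2.15. Whether these probes read the introduced or the resident gene was not tested. The 1 probe of Meis1 stayed near background on all 3 arrays. Myc had 1.36, 2.31 and 2.95, a difference of -0.95, and Kit, the stem cell factor receptor, had 1.9, 0.62 and 0.20.

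Ribosome biogenesis genes and Myc targets, read as 1 list, lay as evenly to the other side as mitosis genes lay to the first. Of 23 measured, 21 were below 0 and 0 past 2-fold, with a median of -0.48. The lowest difference in this list was -0.95, that of Myc itself. Ribosomal protein genes had differences from -0.19 to 0.15 over 24 members, and 12 common reference genes a median of 0.08. Cad, which starts pyrimidine synthesis, differed by -2.99 and Gart, of purine synthesis, by -1.56 (-0.89 by its second probe). Cad was dim, with levels of -3.42 on the A2 array, -0.43 on the RA plus D3V array and -2.11 untreated. Its difference shrank to -1.53 at its smallest over 8 processing alternatives. The other 20 genes of nucleotide and one-carbon synthesis lay within 2-fold.

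Transcription factors of blood cell fate were divided. Gata2 and Gfi1b, of stem, mast and megakaryocyte cells, had differences of -3.08 and -3.83. The other 8 of 10 measured stem and erythroid factors lay within 2-fold. Of the 10, 4 were above 0, and the list's median was -0.16. Gata2 had levels of -1.01 on the A2 array, 2.08 on the RA plus D3V array and 1.98 untreated, and Gfi1b had -3.36, 0.47 and -0.07, so the A2 array was apart for both. Klf4, a factor of monocyte differentiation, had -1.33, 1.69 and -0.59, with the RA plus D3V array apart. Among 28 monocyte and granulocyte factors 4 lay at least 2-fold higher on each array. Pparg, the lipid-sensing nuclear receptor, differed by 1.98, Bhlhe40 by 1.74, Irf8, a monocyte factor, by 1.22 and Cebpb by 1.04, while Nr4a1 differed by -1.62, Id1 by -1.58 and Cebpa, a granulocyte factor, by -1.39.

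Lysosome genes had 23 of 27 members above 0, 4 at least 2-fold higher on the A2 array and 0 on the other, with a median of 0.48. Lipa, the lysosomal acid lipase, had levels of 4.51, 1.93 and 1.63, and Psap, the saposin precursor, had 8.44, 6.26 and 5.21. The proteases Ctsb and Ctsd differed by 1.74 and 1.19. Hypoxia response genes had a median of 0.50 over 20 members, with Hif1a, the oxygen-regulated factor itself, at 1.98, the growth factor Vegfa at 1.98 and the oxygen sensor Egln1 at 1.16. Of 24 glycolysis genes 19 were above 0, with the lactate exporter Slc16a3 at 1.05 and the glucose carrier Slc2a3 at -1.36 the members past 2-fold. That is 4.17% each way, near the 3.78% and 4.05% over all measured genes. NRF2 targets had 2 of 18 past 2-fold, Osgin1 at 2.05 and Hmox1, haem oxygenase, at 1.15.

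Inflammatory and antigen presentation genes were divided. Of 20 NF-kB and inflammatory genes measured, 7 lay at least 2-fold higher on the RA plus D3V array and 3 on the A2 array, with a median of -0.12. A further 2 were well above background only on the A2 array, with bounds past 2-fold. Tlr2, a receptor for bacterial lipoproteins, differed by -2.26, Ptgs2, the inducible prostaglandin synthase, by -1.98 and Tnf by -1.62. Ptgs1, its constitutive relative, differed by 2.40 and Tlr4, the lipopolysaccharide receptor, by 1.66. Each pair of relatives thus went in opposite directions. Among 13 MHC class II and costimulation genes, 4 lay at least 2-fold higher on the RA plus D3V array, with Cd74, the invariant chain, at -1.95, Cd86 at -1.32 and Cd83 at -1.30, and Cd40 was the 1 on the other side at 2.03. With normexp Cd86 stood at -0.68, Cd83 at -0.92 and Cd80 at -0.96, under 2-fold. The probes of Cd80 gave -1.0 and 0.35. Interferon response genes had 5 on one side, led by Zbp1 at 1.66, and 3 on the other, led by Oas2 at -1.52, of 23.

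**Figure D4:**
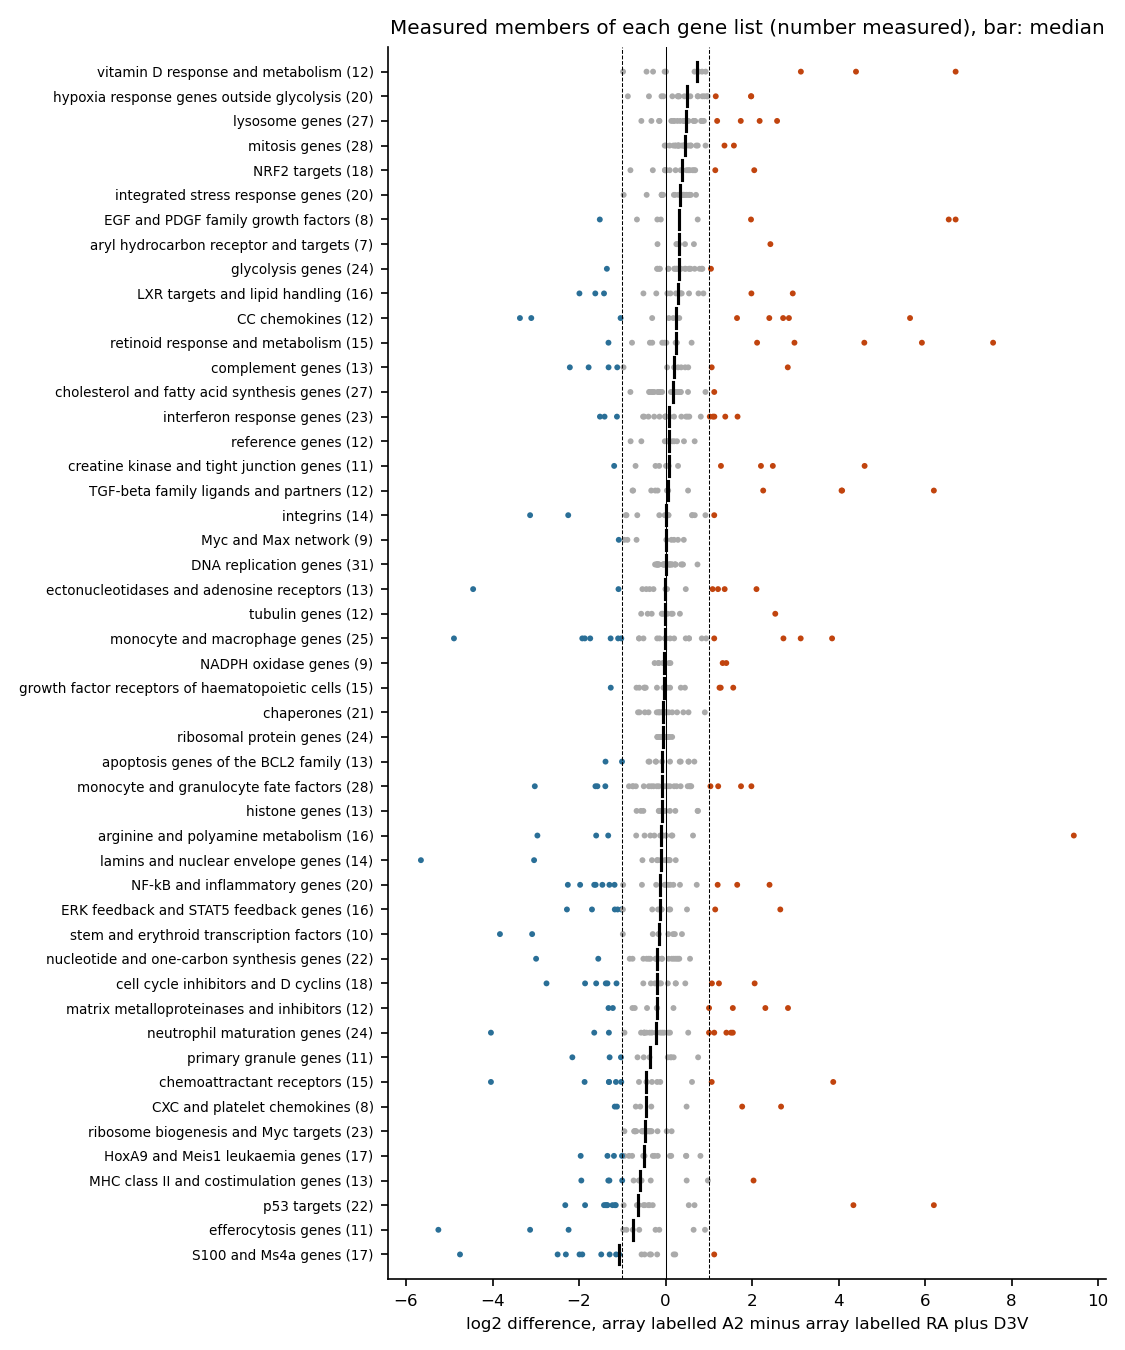
Difference between the treated arrays (x axis, log2) of each measured member of 49 gene lists, with the number measured in brackets, red where at least 2-fold higher on the A2 array and blue where at least 2-fold higher on the RA plus D3V array. Black bars are medians and run from -1.07 for S100 and Ms4a genes to 0.72 for vitamin D genes. Mitosis genes form a narrow group on one side of 0, and ribosome biogenesis genes with Myc targets form one on the other.

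The other leading genes on the RA plus D3V array had differences of -4.87 to -3.06. Klrb1f, a lectin-like receptor, differed by -4.87, Slc24a3, a sodium, potassium and calcium exchanger, by -4.73, the orphan receptor Gpr162 by -4.67 and Ffar2, a receptor for short-chain fatty acids, by -4.53. Ifitm1, an interferon-induced membrane protein, had levels of -1.26 on the A2 array, 2.86 on the RA plus D3V array and -0.79 untreated, and its second probe gave -4.26. Gpr85 differed by -4.02, the lectin receptor Clec4a1 by -3.98, Pigz, of GPI anchor synthesis, by -3.91 and Dmkn, dermokine, by -3.67 on both its probes. The probes of Ifitm1 overlap almost wholly in position, as do those of Dmkn, so neither pair gives separate readings. Cox6b2, a cytochrome oxidase subunit, differed by -3.17, the glutamate receptor Gria3 by -3.10, the proteoglycan Sdc4 by -3.08, Tgfbi, a secreted adhesion protein, by -3.07 and the matrix proteoglycan Vcan by -3.06 (-4.53 by its second probe). Bex6 was well above background only on this array of the treated pair and at least 42.7-fold higher there.

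Genes named for other cell types in the marrow were also read. The summed level of 17 T and NK cell genes was 4.46 on the A2 array and 4.10 on the RA plus D3V array, that of 13 erythroid genes 2.80 and 3.0, and that of 11 dendritic cell genes 7.64 and 7.75. The 12 stromal and endothelial genes gave 3.54 and 3.78. Sums were further apart for 11 B cell genes, at 4.90 and 3.91, and for 13 eosinophil, basophil and mast cell genes, at 1.69 and 2.86. Blnk, a B cell adaptor that differed by 2.74, and Gata2, at -3.08, are members of these last lists. Of 7 measured B cell genes 6 lay within 2-fold, with a list median of 0.19. Of 6 measured eosinophil, basophil and mast cell genes 4 lay within 2-fold, and Ear2 differed by 1.64, opposite to Gata2. Single members thus weigh heavily in these sums. Whether other cells had a part in the differences was not tested. In these bulk samples, fewer cells of a type and less RNA per cell cannot be told apart.

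**Figure D5:**
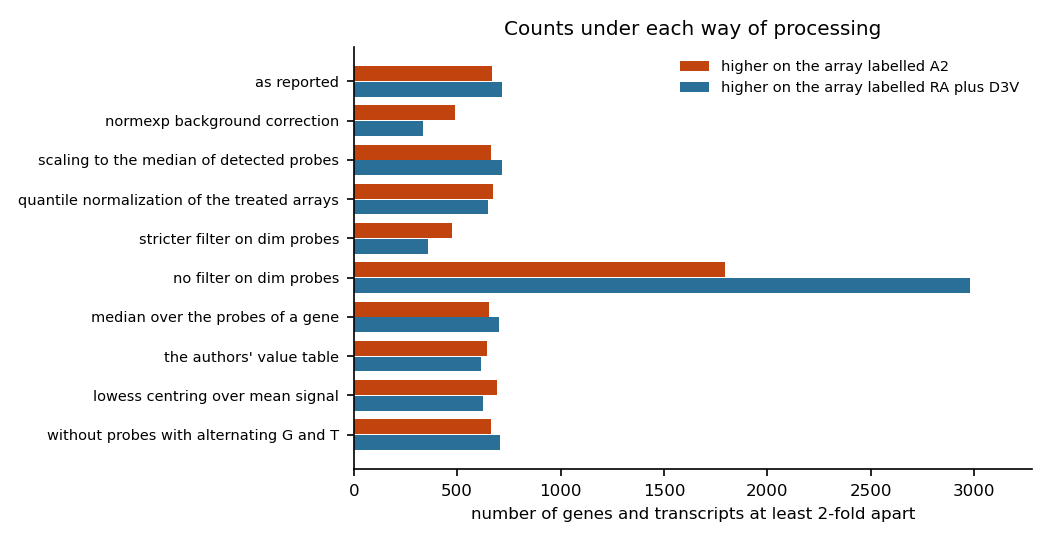
Number of genes at least 2-fold apart under each processing alternative (counts on the axis), red for higher on the A2 array and blue for higher on the RA plus D3V array. Without the filter on dim signals the counts are 1794 and 2982, and with normexp they are 491 and 336.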

How the data were processed

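RNA (50 ng) was amplified with a low-input kit and Cy3-labelled, per the labels' protocols, and all 3 arrays share 1 slide and 1 scan. The deposited scanner files hold intensity values after the scanner software's background subtraction, with its flags in other columns, from Agilent Feature Extraction 11.5.1.1, per the submitters' processing notes. The deposited value table holds intensity values whose normalization is not given in the sources used here. Its control column matched no scanner file fully (rho 0.936 against the untreated array).

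Here log2 of the processed signal minus each array's 75th percentile was taken over non-control probes, and spots of 1 probe were averaged. A gene is read by its brightest probe and is measured where well above background on both treated arrays. Uneven spots were left out (24 probes). A bound is the bright array's level minus the higher of the dim array's lowest level well above background and the probe's own. Named genes have a RefSeq symbol (predicted genes, clones and receptor families excepted) and a brighter signal above that array's median of detected probes. They are the 25 largest differences and 8 largest bounds each way, up to 4 highest and 4 lowest members of each list past 2-fold, and some genes fixed whatever their value. Members and lists were chosen with earlier results of these data known. Array positions are in build mm9 and promoters are from RefSeq for GRCm38.p6.

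Alternatives were normexp (limma 3.58.1 in R 4.3.3), other scaling, filters, folds and probe rules, the value table and, chosen after seeing the data, lowess centring and leaving out probes with a G and T run. Python 3.11.15 with numpy 2.4.6, pandas 2.3.3, scipy 1.17.1 and statsmodels 0.14.6 was used, and the scripts were tested on simulated data. Some genes that the naming rule selects are not reported here.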

Additional observations from a re-analysis of the deposited data

Results flagged for a closer look

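For 19 named genes the treated arrays lay at least 2-fold from the untreated array in opposite directions. With 1 array per condition the difference was not tested, and both values share the untreated array. For 8 genes the A2 array was the higher one. Adgre5 stood at 2.62 on the A2 array and -1.94 on the RA plus D3V array relative to the untreated array, 4.56 apart. Apoc2 stood at 1.41 on the A2 array and -1.54 on the RA plus D3V array relative to the untreated array, 2.94 apart. Cp stood at 4.02 on the A2 array and -1.17 on the RA plus D3V array relative to the untreated array, 5.19 apart. Hid1 stood at 4.04 on the A2 array and -1.14 on the RA plus D3V array relative to the untreated array, 5.18 apart. Klk9 stood at 2.65 on the A2 array and -2.0 on the RA plus D3V array relative to the untreated array, 4.65 apart. Ncmap stood at 2.43 on the A2 array and -2.17 on the RA plus D3V array relative to the untreated array, 4.6 apart. Prkar1b stood at 3.69 on the A2 array and -1.13 on the RA plus D3V array relative to the untreated array, 4.82 apart. Tubb6 stood at 1.51 on the A2 array and -1.02 on the RA plus D3V array relative to the untreated array, 2.54 apart.

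For the other 11 genes the RA plus D3V array was the higher one. Cad stood at -1.31 on the A2 array and 1.69 on the RA plus D3V array relative to the untreated array, -2.99 apart. Clec4a1 stood at -1.31 on the A2 array and 2.67 on the RA plus D3V array relative to the untreated array, -3.98 apart. Cox6b2 stood at -1.89 on the A2 array and 1.28 on the RA plus D3V array relative to the untreated array, -3.17 apart. Cxcr2 stood at -2.54 on the A2 array and 1.5 on the RA plus D3V array relative to the untreated array, -4.04 apart. Dmkn stood at -2.62 on the A2 array and 1.04 on the RA plus D3V array relative to the untreated array, -3.67 apart. Gpr162 stood at -1.15 on the A2 array and 3.52 on the RA plus D3V array relative to the untreated array, -4.67 apart. Gpr85 stood at -2.37 on the A2 array and 1.65 on the RA plus D3V array relative to the untreated array, -4.02 apart. Gria3 stood at -2.0 on the A2 array and 1.1 on the RA plus D3V array relative to the untreated array, -3.10 apart. Ms4a4b stood at -1.19 on the A2 array and 1.31 on the RA plus D3V array relative to the untreated array, -2.50 apart. S100a4 stood at -3.0 on the A2 array and 1.75 on the RA plus D3V array relative to the untreated array, -4.75 apart. Sdc4 stood at -1.26 on the A2 array and 1.82 on the RA plus D3V array relative to the untreated array, -3.08 apart.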

How the results depend on the processing

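Genes at least 2-fold higher on the A2 array numbered 667, against 491 with normexp, 473 with the stricter filter and 1794 without the filter on dim signals. At 4-fold they numbered 200. Those higher on the RA plus D3V array numbered 715, against 336 with normexp, 358 with the stricter filter, 2982 with no filter and 99 at 4-fold. The share higher on the A2 array was 48.3%, and 59.4% with normexp, 56.9% with the stricter filter and 37.6% with no filter, where the median of all genes was -0.157. The median of the CXC and platelet chemokine list turned from -0.46 to 0.72 with the stricter filter, and that of the EGF and PDGF family list from 0.32 to -0.17 with no filter, so neither list has a settled direction. The complement median turned from 0.20 to -1.12 with the stricter filter and the retinoid median from 0.23 to -0.03 with no filter. The vitamin D median fell from 0.72 to 0.34 with no filter. The cause was not tested. Of 195 named genes at least 2-fold apart, 167 stayed so in the same direction under every alternative that measured them. The other 28 came under 2-fold in at least 1 alternative, among them Bcl2, Cdk6, Cdkn2b, Cdkn2c, Cebpb, Cxcl10, Egln1, Pycr1 and Serpinb1a. With normexp 110 of 201 named genes moved beyond the spread between probes, Cp from 5.19 to 3.51, Dusp14 from 4.97 to 3.21, Nrip1 from 5.93 to 4.36, Gfi1b from -3.83 to -2.23 and Gpr162 from -4.67 to -2.81. Signals near background limit the lowest levels. No paired analysis was possible because each group has 1 array.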

Other observations

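The largest difference on the arrays belonged to a probe in an unnamed transcribed region, at chr5:111652202-111652261 on the plus strand in build mm9. Its level was 9.49 on the A2 array, -3.71 on the RA plus D3V array and -5.19 untreated, a difference of 13.20. The adjacent probe, at chr5:111652142-111652201, was not well above background on either treated array, with levels of -5.20 and -6.13. The region's remaining probe, at chr5:111612239-111612298, was likewise not well above background on either. Its levels were -6.48 on the A2 array and -4.73 on the RA plus D3V array, a difference of -1.75. In the deposited value table the bright probe had an intensity of 252284 in the column labelled RA plus D3V and 25.6 in the column labelled A2. The bright and adjacent probes are shown because neighbouring sequences of 1 region gave such unequal signals.
Bright probe: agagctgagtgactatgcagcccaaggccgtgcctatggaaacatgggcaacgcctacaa
Adjacent probe: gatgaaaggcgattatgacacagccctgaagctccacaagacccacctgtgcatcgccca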
